A study of Oryctolagus cuniculus with 3 samples.

Results

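The genes described here are 9 genes of ceramide and barrier lipid metabolism: SPTLC2, CERS2, CERS3, CERS4, ELOVL4, ELOVL7, ABCA12, UGCG and SMPD1. They were chosen by name, and the fragments of all coding sequences that carry a gene's name were added up within each library. All 9 were found among the 20536 gene names of the tables. RNA sequencing was done on RCE1(5T5), a line of rabbit corneal epithelial cells, grown on mitomycin C-treated 3T3 cells (mouse fibroblasts used as a feeder layer) in medium with fetal calf serum, insulin, transferrin, hydrocortisone, triiodothyronine, cholera toxin, adenine and EGF. The line was sampled while non-differentiated (day 4), when committed (day 6) and when terminally differentiated (day 10), after the feeder cells had been detached with EDTA, and 1 library was made at each stage. Without replicates the differences have no check and no test, and stage, day and library cannot be told apart.

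Ceramides consist of a sphingoid base joined to a fatty acid. Serine palmitoyltransferase makes the base, ceramide synthases attach fatty acids of different lengths, and ELOVL enzymes lengthen those fatty acids beforehand. Ceramide is then turned into glucosylceramide or sphingomyelin, and in epidermis the lipid transporter ABCA12 loads glucosylceramide into lamellar granules, from which the water barrier of the skin is built. The corneal epithelium does not cornify, and its barrier is known to rest mainly on tight junctions and a mucin coat.

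Of the 9 genes, 3 rose and 1 fell from day 4 to day 10, where 17.1% of all measured genes rose and 15.8% fell. ABCA12 rose 19.4-fold, ELOVL4 5.52-fold and CERS3 3.86-fold, and CERS2 fell 2.63-fold. UGCG, which makes glucosylceramide, fell by day 6 and was back near its day 4 level on day 10. SPTLC2, SMPD1, CERS4 and ELOVL7 neither rose nor fell in any of the 3 comparisons. In bulk RNA, a change in the number of cells of a type and a change in RNA per cell cannot be told apart. "Rose" and "fell" are used where log2(CPM + 1) differed by at least 1, that is 2-fold in CPM + 1. Printed folds are ratios of CPM without the added 1. They are larger than the fold in CPM + 1, most of all at low CPM, so a fold just past 2 may go uncalled. CPM are fragments per 1000000, scaled between libraries by edgeR's TMM method. Brackets give exact 95% intervals, which cover counting error only.

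From day 4 to day 6, 2 of the 9 genes rose (ABCA12 and CERS3), where 8.06% of the 12818 measured genes did, and 1 fell (UGCG), against 6.73%. From day 6 to day 10, 3 rose (ABCA12, UGCG and ELOVL4), against 8.25% of all measured genes, and 0 fell, against 7.1%. Over the whole interval 3 rose (ABCA12, CERS3 and ELOVL4), against 17.1%, and 1 fell (CERS2), against 15.8%. The median log2 difference of the 9 genes was 0.21, 0.34 and 0.22 in these comparisons, and that of all measured genes was 0.00, -0.01 and 0.01. Measured genes had at least 1 CPM in at least 1 library, and all 9 genes met that minimum in every library. The comparisons share libraries, so the counts are not separate results. The genes were picked with earlier results of these data known, and the counts describe these libraries only.

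**Figure D1:**
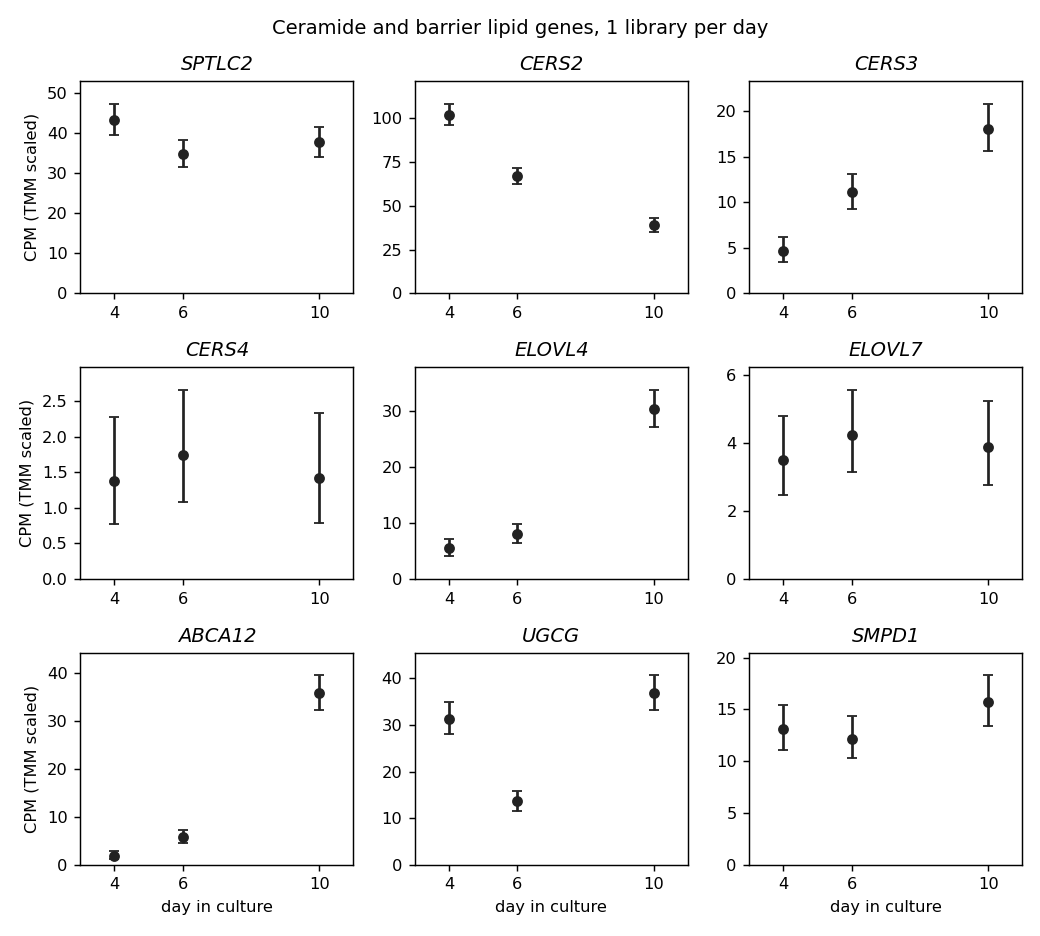
TMM-scaled CPM (vertical axes, each starting at 0) of the 9 genes against day in culture (horizontal axes), with 1 library per point and bars for the exact 95% counting interval. ABCA12 goes from 1.84 to 35.7 CPM and CERS2 from 102 to 38.9 CPM, while UGCG is lowest on day 6 at 13.6 CPM.

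**Figure D2:**
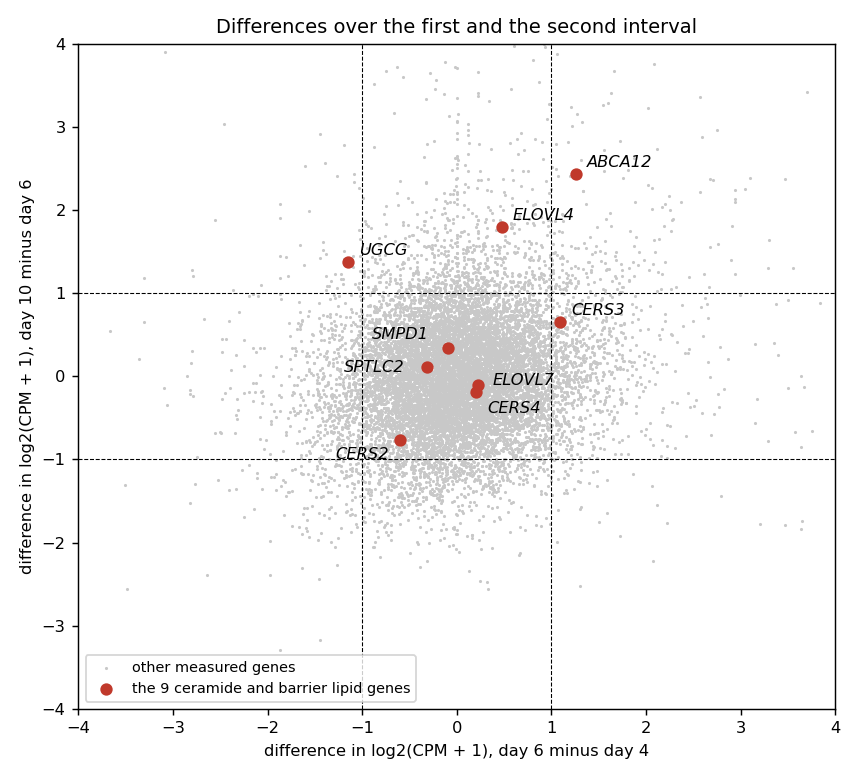
Difference in log2(CPM + 1) from day 4 to day 6 (horizontal axis) and from day 6 to day 10 (vertical axis) for the measured genes in grey and the 9 genes in red, with dashed lines at 2-fold; 45 genes lie outside the axes. ABCA12 is past 2-fold in both intervals, and UGCG is past it downward in the first and upward in the second.

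In order of day the libraries held 10171693, 12582706 and 10899578 fragments, and 1 fragment was worth 0.0918, 0.0829 and 0.0942 CPM. Of 12 corneal and general epithelial genes 7 rose and 0 fell from day 4 to day 10 (6 and 1 with the deposited TPM). The risers were KRT3, KRT12, PAX6, KRT13, KRT4, TP63 and EHF. KRT12 had 0 fragments on day 4 and passed the minimum only through the later libraries. Its rise is thus no support for the list's direction. KRT5 (15650 to 13552 CPM), CDH1 (291 to 155 CPM) and EPCAM (127 to 95.3 CPM) were lower on day 10, short of 2-fold. So were KLF4 (20.1 to 17 CPM) and KLF5 (78.1 to 75.3 CPM). With TPM, CDH1 was the 1 faller (111.9 to 45.1 TPM). KRT13, KRT4, TP63 and EHF are not particular to cornea. Of all measured genes 17.1% rose and 15.8% fell over that interval. Of 14 measured fibroblast and feeder markers 13 fell and 1 rose over that interval. In order of day they summed to 5413, 3214 and 1732 CPM, and LUM had 0 fragments throughout. Reads of mouse feeder RNA may have been counted on rabbit coding sequences, which gene tables cannot show, and their part in any level given here was not tested. Among meibomian gland genes, which would mark another lipid-secreting cell of the ocular surface, the wax synthases AWAT1 and AWAT2 were at 0.551 CPM or less and ELOVL3 had 0 fragments throughout. Of the 10 genes of that list 4 were measured; the list summed to 146, 236 and 299 CPM, most of it PLIN2, a lipid droplet protein of many cell types, at 86.5, 159 and 172 CPM. MGST1, a glutathione transferase, was its 1 riser from day 4 to day 10 (25.1 to 103 CPM). Of 5 measured conjunctival and goblet genes, 2 rose and 0 fell from day 4 to day 10, with a median of 0.93. The risers were KRT7 (20.6 to 132 CPM) and AGR2 (0 to 18.5 CPM). AGR2 passed the minimum only through day 10, so its rise is no support for the list's direction. KRT19 was at 1652, 2374 and 3140.5 CPM, MUC5AC, a goblet mucin, was at 0.753 CPM or less, and TFF1 had 0 fragments. Of 9 vascular and immune genes 3 were measured: LYZ rose from 0.0918 to 3.2 CPM, CDH5 fell from 1.93 to 0.377 CPM and PTPRC was between 1.47 and 1.82 CPM. LYZ likewise passed the minimum only through day 10, so its rise is no support for a direction of that list. PECAM1, TYROBP, FCER1G and CD3E had 0 fragments in all 3 libraries. The part of these other-cell genes in the results below was not tested.

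Levels of different genes are compared on the deposited TPM scale, which is per coding length. On day 4 CERS2 led the 9 genes with 75 TPM, followed by UGCG at 29.1 TPM and SPTLC2 at 24.6 TPM, whose counting intervals overlapped. SMPD1, ELOVL4, ELOVL7 and CERS3 followed between 6.9 and 4 TPM, each overlapping its neighbour, and CERS4 (1.2 TPM) and ABCA12 (0.2 TPM) were last. On day 6 CERS2 still led with 38.5 TPM, ahead of SPTLC2 at 15.4 TPM and UGCG at 9.6 TPM. CERS3, ELOVL4, SMPD1 and ELOVL7 then lay between 7.1 and 4.2 TPM with neighbouring intervals overlapping, and CERS4 (1.2 TPM) and ABCA12 (0.6 TPM) were again last. The order was different on day 10: UGCG (26.1 TPM), ELOVL4 (25.9 TPM) and CERS2 (22.8 TPM) stood at the top with overlapping intervals between neighbours, and SPTLC2 (16.8 TPM), CERS3 (11.4 TPM) and SMPD1 (6.8 TPM) followed, each apart from the next. ELOVL7 (3.7 TPM) and ABCA12 (3.6 TPM) overlapped, and CERS4 was last with 0.8 TPM. ELOVL4 thus moved from place 5 to place 2, while ABCA12 stayed among the lowest per coding length in spite of its rise.

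SPTLC2 is a catalytic subunit of serine palmitoyltransferase, which makes the sphingoid base. Its CPM were 43.1 on day 4, 34.6 on day 6 and 37.6 on day 10, so day 6 was lowest and the day 10 to day 4 ratio was 0.871 [0.761 to 0.998]. SPTLC3, an alternative catalytic subunit that is not among the 9 genes, went from 8.26 to 13.2 and 41 CPM. It rose 3.11-fold [2.59 to 3.75] from day 6 to day 10 and 4.96-fold [3.94 to 6.3] in all. Of the summed TPM of both subunits, SPTLC3 held 17.7%, 30.3% and 54.5% in order of day. SPTLC2 thus stayed near its day 4 level in CPM. With TPM its log2 differences from day 4 were -0.64 on day 6 and -0.52 on day 10. The medians of the 12818 measured genes were -0.28 and -0.29 there. The SPTLC2 share of the pair's TPM went from 82.3% to 45.5%.

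Of the 11 measured genes of sphingoid base synthesis, SPTLC2 included, 1 rose and 0 fell by day 6, 1 rose and 0 fell from day 6 to day 10, and 4 rose and 1 fell in all (2 and 1 with TPM). The medians were 0.08, 0.12 and 0.73 on the log2 scale, against 0.00, -0.01 and 0.01 for all measured genes. In the same comparisons 8.06%, 8.25% and 17.1% of all measured genes rose and 6.73%, 7.1% and 15.8% fell. The first list median turned to -0.05 with no TMM and to -0.18 with TPM. That of the 12818 measured genes moved to -0.14 and -0.28 there. SPTSSB, a small activating subunit, was at 0.642 CPM on day 4, below the minimum, and rose 7.33-fold [3.31 to 19.2] by day 10. It passed the minimum only through the later libraries, so its rise is no support for the list's direction. ORMDL3, a regulator that restrains the enzyme, rose 2.09-fold [1.74 to 2.52] by day 6, a call lost with no TMM, with DESeq2 size factors and with TPM. DEGS1, the desaturase that completes ceramide, fell from 129 to 59.7 CPM between day 4 and day 10.

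CERS2 is a ceramide synthase that prefers very-long-chain fatty acids. Its CPM were 102 on day 4, 67.1 on day 6 and 38.9 on day 10, lower at each later stage. The fall over the whole interval was 2.63-fold [2.34 to 2.95]. Each step alone stayed short of 2-fold, with ratios of 0.657 [0.599 to 0.72] and 0.58 [0.514 to 0.654]. The fibroblast and feeder markers fell over the same intervals, as given above, and their part in the fall of CERS2 was not tested.

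CERS3 is the ceramide synthase known for ultra-long-chain ceramides of skin and testis. Its CPM were 4.68 on day 4, 11.1 on day 6 and 18.1 on day 10, so that each later library was higher. It rose 2.37-fold [1.71 to 3.35] by day 6 and 3.86-fold [2.82 to 5.37] by day 10, and the second step alone was 1.63-fold [1.3 to 2.04]. The day 6 call was lost with no TMM (0.95 on the log2 scale), with TPM (0.70), with a pseudocount of 5 (0.74) and with the highest coding sequence (0.79). CERS3 is listed with 4 coding sequences of 13.5, 12.5, 12.5 and 12.5 fragments on day 4 and 48 each on day 10, so the tables do not separate its isoforms and only their sum is used.

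CERS4, a ceramide synthase with a broader range of chain lengths, was at 1.38, 1.74 and 1.41 CPM, from 15, 21 and 15 fragments. Its day 10 to day 4 ratio was 1.03 [0.468 to 2.25], so at this depth the interval includes a 2-fold change in either direction. Its tiny log2 difference of 0.02 changed sign with no TMM (-0.06), with read counts (-0.06) and with TPM (-0.29).

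The CERS family was read as a whole from the summed TPM of its 5 genes in the tables. In order of day CERS2 held 64.7%, 53.5% and 30.1% of it, and CERS3 held 3.45%, 9.86% and 15%. CERS5, which prefers palmitate, held 28.6%, 29.9% and 47.9% and was the most abundant family member on day 10 with 36.3 TPM, although its own change was only 1.4-fold [1.23 to 1.59] from day 4 to day 10. CERS6, which prefers the same fatty acid, was at 2.6, 3.7 and 4.5 TPM. Counted in fragments of the pair, CERS3 made up 4.38% [3.28 to 5.72], then 14.2% [12 to 16.6] and at last 31.7% [28 to 35.6] of CERS3 plus CERS2 (exact Clopper-Pearson intervals). The intervals of the 3 libraries do not overlap, and this share does not depend on the scaling between libraries.

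**Figure D3:**
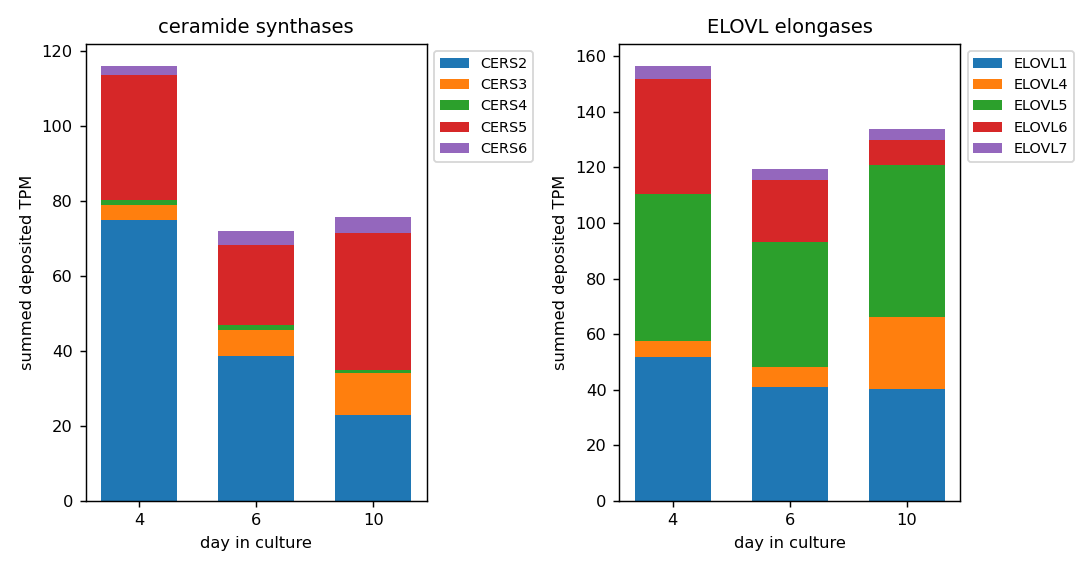
Summed deposited TPM (vertical axes, from 0) of the ceramide synthases and of the ELOVL elongases against day in culture, with 1 library per bar and 1 colour per gene (ELOVL2 and ELOVL3, at 0.2 TPM or less, are not drawn). The CERS2 part shrinks from 75 to 22.8 TPM, and the ELOVL4 part grows from 5.8 to 25.9 TPM while the ELOVL6 part shrinks from 41.7 to 9 TPM.

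ELOVL4 extends fatty acids to the ultra-long chains that CERS3 uses. Its CPM were 5.51 on day 4, 8.04 on day 6 and 30.4 on day 10, with day 10 far above both earlier libraries. The first step was 1.46-fold [1.05 to 2.05] and the second a rise of 3.78-fold [3.01 to 4.8], giving 5.52-fold [4.18 to 7.4] in all. The first steps of ELOVL4 and CERS3 had overlapping counting intervals, so no difference in timing between them is read from these values.

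ELOVL7, an elongase of saturated long and very-long chains, was at 3.49, 4.23 and 3.86 CPM. The day 10 to day 4 ratio was 1.11 [0.695 to 1.77], and the 3 libraries had overlapping intervals. The small log2 differences from day 4, 0.22 on day 6 and 0.12 on day 10, were below 0 with TPM (-0.11 and -0.25). Its 3 coding sequences carried 13.5, 13.5 and 11 fragments on day 4, again too alike to tell isoforms apart.

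Among all 7 ELOVL genes, ELOVL4 held 3.7%, 5.84% and 19.4% of the summed TPM in order of day, and ELOVL7 held 2.94%, 3.51% and 2.77%. ELOVL1 and ELOVL5, the elongases of saturated very-long chains and of polyunsaturated chains, were at 51.6 and 52.9 TPM on day 4 and at 40.4 and 54.7 TPM on day 10. ELOVL6, which turns palmitate into stearate, went the other way from ELOVL4 and fell from 32.2 to 9.04 CPM. ELOVL3 had 0 fragments in all libraries and ELOVL2 at most 2. Of the 11 measured genes of the elongation list, which also holds the enzymes of the other elongation steps, 0 rose and 1 fell by day 6, 1 rose and 1 fell from day 6 to day 10, and 1 rose and 2 fell in all. Over the whole interval ELOVL4 was the 1 riser, and the fallers were ELOVL6 and HACD1, a dehydratase of the cycle, which fell from 16.2 to 3.48 CPM. The medians were 0.05, -0.15 and 0.02, against 0.00, -0.01 and 0.01 for all measured genes. Of all measured genes 8.06%, 8.25% and 17.1% rose and 6.73%, 7.1% and 15.8% fell. With no TMM the first and last list medians were -0.11 and -0.11, and with TPM they were -0.28 and -0.35. Those of the 12818 measured genes moved likewise, to -0.14 and -0.11 with no TMM and to -0.28 and -0.29 with TPM.

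ABCA12, the lipid transporter of lamellar granules, had the largest rise of the 9 genes. Its CPM were 1.84 on day 4, 5.81 on day 6 and 35.7 on day 10, from 20, 70 and 379 fragments, and the 3 counting intervals do not overlap. It rose 3.16-fold [1.9 to 5.49] by day 6, 6.15-fold [4.75 to 8.05] from day 6 to day 10 and 19.4-fold [12.4 to 32.2] in all. On the log2(CPM + 1) scale the difference over the whole interval, 3.69, was larger than that of 99.17% of measured genes. The day 6 call was lost with a pseudocount of 5 (0.66 on the log2 scale) and with TPM (0.41). The deposited TPM were 0.2 and 0.6, given to 1 decimal only. A pseudocount of 1 was added to TPM as to CPM, and at such levels it sets much of the difference.

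The other genes of acylceramide and lamellar granule formation were read from a list of 16 measured genes that includes ABCA12, CERS3 and ELOVL4. By day 6, 6 rose and 1 fell, from day 6 to day 10, 4 rose and 1 fell, and over the whole interval 8 rose and 0 fell (3 and 1, 3 and 1, and 7 and 0 with TPM). The medians were 0.68, 0.50 and 1.02, against 0.00, -0.01 and 0.01 for all measured genes. Of all measured genes 8.06%, 8.25% and 17.1% rose and 6.73%, 7.1% and 15.8% fell. Without the 3 genes described above, 5 of 13 rose and 0 fell from day 4 to day 10, with a median of 0.70. Of those 16 genes, CYP4F22, EPHX3 and FA2H were under 1 CPM on day 4 and passed the minimum only through the later libraries, so their rises are no support for the list's direction.

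CYP4F22, which hydroxylates the end of ultra-long-chain fatty acids for acylceramide, went from 0.734 to 4.64 and 8.57 CPM, a rise of 11.7-fold [5.68 to 27.9] by day 10. EPHX3, an epoxide hydrolase of the same barrier pathway, had 0, 32 and 33 fragments in order of day, at least 9.64-fold higher on day 6 and at least 11.3-fold higher on day 10 than a floor of 3 fragments. PNPLA1, which joins linoleate to the hydroxylated ceramide, was near 0, with 1, 0 and 2 fragments, and ALOX12B, a lipoxygenase acting on acylceramide, had 3, 1 and 5. SDR9C7, a dehydrogenase of the same route, and LIPN, a lipase, had 0 fragments throughout. These 4 genes of the epidermal pathway were thus at or near 0 at all 3 stages, while ABCA12, CERS3 and ELOVL4 rose from day 4 to day 10. ALOXE3, the lipoxygenase that follows ALOX12B, was higher, at 2.39, 0.912 and 3.2 CPM.

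The remaining genes of that list followed different courses. TGM1, which links envelope proteins and ceramides, was at 8.53, 30.6 and 7.35 CPM, rising 3.59-fold [2.85 to 4.55] and then falling. AP1S3, a subunit of a vesicle adaptor, did the opposite at 4.68, 1.16 and 11.8 CPM and ended above its day 4 level. DGAT2, an enzyme of triglyceride synthesis, was at 7.25, 19.2 and 29.7 CPM. SLC27A4, a fatty acid transporter, led the list on the TPM scale on day 4 with 25.4 TPM and was at 20.4 and 13.8 TPM later, below ELOVL4 on day 10.

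UGCG transfers glucose to ceramide, the first step towards glycosphingolipids and towards the cargo of ABCA12. Its CPM were 31.4 on day 4, 13.6 on day 6 and 36.8 on day 10, so that day 6 was low and both ends were high. It fell 2.31-fold [1.91 to 2.8] by day 6 and rose 2.71-fold [2.25 to 3.27] after it. The net ratio of day 10 to day 4 was 1.17 [1.01 to 1.36], with a log2 difference of 0.22 that was -0.15 with TPM. The fall at day 6 was lost with a pseudocount of 5 (-0.97).

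Downstream of UGCG, the enzymes that add galactose to glucosylceramide parted. B4GALT5 was at 29.6, 14.2 and 25.1 CPM, low on day 6 as UGCG was, and its fall by day 6 passed 2-fold. B4GALT6 rose at both steps, from 6.61 to 14.4 and 42.2 CPM, although its first rise was lost under each of the other scalings tried. Of the 18 measured genes of glucosylceramide and glycosphingolipid metabolism, UGCG included, 3 rose and 2 fell by day 6, 5 rose and 0 fell from day 6 to day 10, and 6 rose and 2 fell in all (1 and 2, 5 and 0, and 5 and 1 with TPM). A4GALT, 1 of those 6, was at 0.734 CPM on day 4. It passed the minimum only through the later libraries, so its rise is no support for the list's direction. The list medians were 0.54, 0.27 and 0.67, against 0.00, -0.01 and 0.01 for all measured genes. In these comparisons 8.06%, 8.25% and 17.1% of all measured genes rose and 6.73%, 7.1% and 15.8% fell. Among the risers over the whole interval, HEXA, a hexosaminidase subunit, rose 3.21-fold [2.93 to 3.52] and the sialidase NEU1 3.17-fold [2.55 to 3.99], both enzymes of lysosomal breakdown. PSAP, the precursor of the saposins, also rose, a call lost with TPM. B4GALNT1, which builds gangliosides, and PLEKHA8, which carries glucosylceramide between membranes, fell, the first from 24 to 4 fragments, a call lost with TPM.

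SMPD1, the acid sphingomyelinase, releases ceramide from sphingomyelin in lysosomes and at the cell surface. Its CPM were 13.1 on day 4, 12.2 on day 6 and 15.7 on day 10, with overlapping intervals in the 3 libraries. The day 10 to day 4 ratio was 1.2 [0.953 to 1.51], and its log2 difference of 0.24 was -0.02 with TPM. The interval lies below 2-fold in either direction, as far as counting error goes.

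Of the 10 measured genes of sphingomyelin metabolism, SMPD1 included, 1 rose and 2 fell by day 6, 0 rose and 1 fell from day 6 to day 10, and 1 rose and 2 fell in all (0 and 3 with TPM). The 1 riser by day 6, SMPDL3B, was at 0.826 CPM on day 4. It passed the minimum only through the later libraries, so its rise is no support for the list's direction. The list medians were 0.03, 0.13 and 0.17, against 0.00, -0.01 and 0.01 for all measured genes. Of all measured genes 8.06%, 8.25% and 17.1% rose and 6.73%, 7.1% and 15.8% fell. With TPM the first and last list medians were -0.31 and -0.10, and those of the 12818 measured genes were -0.28 and -0.29. SGMS1, the sphingomyelin synthase of the Golgi, was at 51, 52.2 and 58.3 CPM, whereas SGMS2, its relative at the plasma membrane, fell from 4.59 to 1.08 CPM by day 6. SMPD4, a neutral sphingomyelinase, fell from 77.5 to 29.9 CPM by day 6 and stood at 15.7 CPM on day 10, and SMPD2, another, was at 21.9 and 28 CPM before it fell to 12.5 CPM. These 2 relatives were named for their falls past 2-fold, so they are no measure of how level SMPD1 was. Differences between these genes were not tested.

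**Figure D4:**
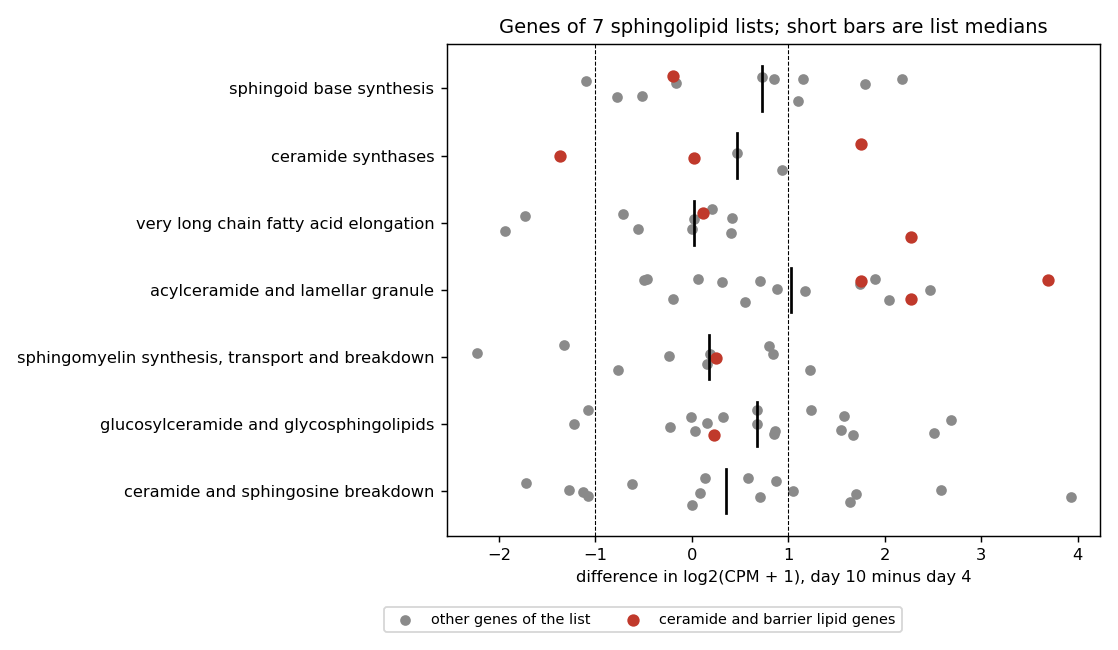
Difference in log2(CPM + 1) from day 4 to day 10 (horizontal axis) for the measured genes of 7 sphingolipid lists (rows), with the 9 genes in red, list medians as short bars and dashed lines at 2-fold; vertical scatter within a row has no meaning. ABCA12 lies at 3.69, and CERS2 at -1.37 is the lowest of the 9 genes.

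The genes closest in profile were sought for the largest riser, ABCA12, and the largest faller, CERS2, among 8317 named genes with at least 10 CPM in their highest library. Likeness was the Euclidean distance between the 2 successive log2 differences, so it rests on 3 libraries only. For ABCA12 the nearest were NPTX1, a secreted pentraxin, at a distance of 0.0665, S1PR5, a receptor for sphingosine 1-phosphate, at 0.186, and ENPP1, a nucleotide pyrophosphatase, at 0.221. NPTX1 (0.734 CPM on day 4) and S1PR5 (0.367 CPM) were under 1 CPM there and entered the search through day 10, and at such levels the pseudocount of 1 sets much of the first step: in CPM, S1PR5 was 53.9-fold [20.7 to 200] higher on day 10 than on day 4, against 19.4-fold for ABCA12. ENPP1, at 5.05, 11.5 and 69.4 CPM, was above that level in each library. Within a distance of 0.25, ABCA12 had 3 such genes and CERS2 had 238. The nearest to CERS2 were TIMM10, a mitochondrial import chaperone, PPM1G, a protein phosphatase, and EXT1, a heparan sulfate polymerase, each at 0.0142 or less.

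The scaling shifted the comparisons with day 4. With the deposited TPM (12331 genes at 1 TPM or more in a library) the median log2 difference of all genes moved to -0.30 from day 4 to day 6 and to -0.31 from day 4 to day 10, and with no TMM to -0.14 and -0.11. By day 6, 1033 genes rose and 863 fell with TMM, against 787 and 1217 with no TMM and 558 and 1629 with TPM. From day 4 to day 10 the counts were 2190 and 2024 with TMM, 1921 and 2435 with no TMM and 1382 and 2945 with TPM. The rises of ABCA12, ELOVL4 and CERS3 and the fall of CERS2 from day 4 to day 10 held under each of these scalings, at 1.94, 1.98, 1.31 and -1.68 on the log2 scale with TPM.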

How the data were processed

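Per the file headers, the authors deposited 1 table per library with fragment and read counts, a transcript count (a coverage signal), FPKM, RPKM and TPM for 38696 coding sequences. The deposited fragment and read counts are estimated counts, many of them fractional. The submitters' processing notes name OryCun2.0 as the genome build. The aligner, the counting program and the strand setting were not given in the sources used here. Fragments were summed per gene name and rounded. Scaling used TMM factors of 1.071, 0.958 and 0.974 (edgeR 4.0.16, R 4.3.3). The deposited TPM values were summed per gene for comparisons between genes; FPKM, RPKM and the signal were not used. Of 5185 LOC names, 671 took a symbol from RefSeq (mOryCun1.1), used for names only because its build differs. Intervals are exact (Poisson for CPM and TPM levels, Clopper-Pearson for folds and shares) at 95%; PCR copies are not independent molecules. The fold calculation was tested on simulated data.

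The 9 genes and the 12 lists were chosen with earlier results of these data known. Named genes are the 9, up to 2 largest risers and fallers of each list and comparison past 2-fold, the measured ceramide synthases and elongases, the 3 nearest profiles of the largest riser and faller, and the marker genes highest or at 0. Other list genes were named after their values were seen. Alternatives were other pseudocounts, scalings, minimums and fold thresholds, read counts in place of fragments, and the highest coding sequence alone. Some genes of the lists are not reported here by name.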

Additional observations from a re-analysis of the deposited data

How the results depend on the processing

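From day 4 to day 6, the 2 risers among the 9 genes became 1 with no TMM and with the highest coding sequence (ABCA12 in both), and 0 with a pseudocount of 5, with the deposited TPM and at a 3-fold threshold. The 1 faller became 0 with a pseudocount of 5 and at 3-fold, and 2 at 1.5-fold (CERS2 and UGCG). From day 6 to day 10, the 0 fallers became 1 at 1.5-fold (CERS2). From day 4 to day 10, the 1 faller became 0 at 3-fold. The changes at other thresholds follow from the threshold itself, and the cause of the others was not tested. DESeq2 size factors, read counts, a pseudocount of 0.1, a minimum of 5 CPM and no minimum left these counts within 1.5 times. Of 189 alternative values of the single genes, 174 differed from the reported log2 difference by at most 1/2 the width of its log2 counting interval. The other 15 differed by more, and 0 of the 2-fold calls changed sign. Some of the 174 lie outside the printed intervals, which are of CPM ratios with no pseudocount. Small counts limit CERS4 (15 to 21 fragments), ELOVL7 (38 to 51) and ABCA12 on day 4 (20). Of the 36 calls among 85 pathway genes from day 4 to day 10, 29 were kept with TPM and 34 with no TMM; by day 6 it was 13 and 17 of 21.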

Other observations

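Genes that break ceramide down and handle sphingosine 1-phosphate hold none of the 9 genes. Of 16 measured genes of that list, 5 rose and 4 fell from day 4 to day 10 (median 0.36, against 0.01 for all measured genes), where 17.1% of all measured genes rose and 15.8% fell. With no TMM and with TPM, 4 rose and 4 fell, and the call of ASAH1 was lost under both. SGPP2 (0.459 CPM) and S1PR5 (0.367 CPM) were under 1 CPM on day 4 and passed the minimum only through the later libraries, so their rises do not bear on the list's direction. The acid ceramidase ASAH1 was at 48.2, 33.3 and 100.5 CPM on days 4, 6 and 10, low on day 6 as UGCG was, and rose 3.01-fold [2.69 to 3.39] after it. ACER2, a ceramidase of the Golgi, went from 1.93 to 2.16 and 8.1 CPM. SGPP2, a phosphatase of sphingosine 1-phosphate, rose 16.8-fold [6.93 to 53.2] over the whole interval, from 5 to 82 fragments.

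Receptors and an exporter of sphingosine 1-phosphate were among the genes past 2-fold. S1PR5 rose 53.9-fold [20.7 to 200], from 4 to 210 fragments, and S1PR3 fell from 62 to 11 fragments, S1PR2 from 79 to 31 and S1PR1 from 18 to 1. The exporter SPNS2 was at 64, 14.1 and 28.6 CPM, falling by day 6 and then gaining 2.03-fold [1.68 to 2.46], which is short of 2-fold on the log2(CPM + 1) scale at 0.97. No replicate bears on any of these values, and the part of the fibroblast and feeder markers, which fell over the same days, was not tested.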
